A study of Sus scrofa with 4 samples.

Results

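The genes described here encode the core of Notch signalling, namely the receptors NOTCH1, NOTCH2 and NOTCH3, the ligand JAG1, the DNA-binding mediator RBPJ and the target genes HES1, HEY1 and HEYL. The genes were selected by name, with earlier results of these data known, and each was found once among the protein-coding genes of the deposited tables, which makes 8 of 16192. Their expression was followed through the differentiation of porcine subcutaneous preadipocytes in culture. The cells came from male Chinese Erhualian piglets, 5 days old, and were grown to confluence in medium with fetal bovine serum (D0). A cocktail of dexamethasone, 3-isobutyl-1-methylxanthine and insulin was then given up to day 2 (D2), insulin alone up to day 4 (D4), and medium without added hormones up to day 8 (D8). All 4 stages thus share the breed, the sex, the tissue and the serum, and no culture kept without the cocktail was analysed here.

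For every stage, equal amounts of RNA from 3 piglets were pooled into a single strand-specific library after removal of ribosomal RNA. There are therefore no replicates, the stage and the library cannot be told apart, and no test or p-value compares stages. Intervals given below are 95% intervals that cover counting error only, without the spread between piglets or between library preparations. The numbers of reads were worked out from FPKM, as the smallest whole numbers that match them in all 4 libraries. The libraries held 75387428 counted fragments at D0 and 54987801 at D2, then 74358922 at D4 and 54128151 at D8. Levels are in FPKM, the fragments on a gene scaled by its length and by the library total. A gene passed the filter on low values when 3 or more of the 4 libraries had an FPKM of 1 or above, as was so for 9191 protein-coding genes. Of the Notch genes, 5 passed (NOTCH2, NOTCH3, JAG1, RBPJ and HES1) and 3 did not (NOTCH1, HEY1 and HEYL).

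Notch receptors are membrane proteins that are cut when a ligand on a neighbouring cell pulls on them. The part set free moves to the nucleus, where it joins RBPJ and switches on genes such as those of the HES and HEY families, whose products in turn repress transcription. In cultured preadipocytes, the pathway and HES1 are known to act on the course of adipocyte differentiation, and NOTCH3 and HEYL are known from the mural cells of blood vessels.

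The plot of levels by stage shows all 8 genes. NOTCH2 was the highest receptor and the highest of the 8 genes in every library. JAG1 stood out by the difference between D4 and D2, and the low target genes HEY1 and HEYL by their level at D4.

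**Figure D1:**
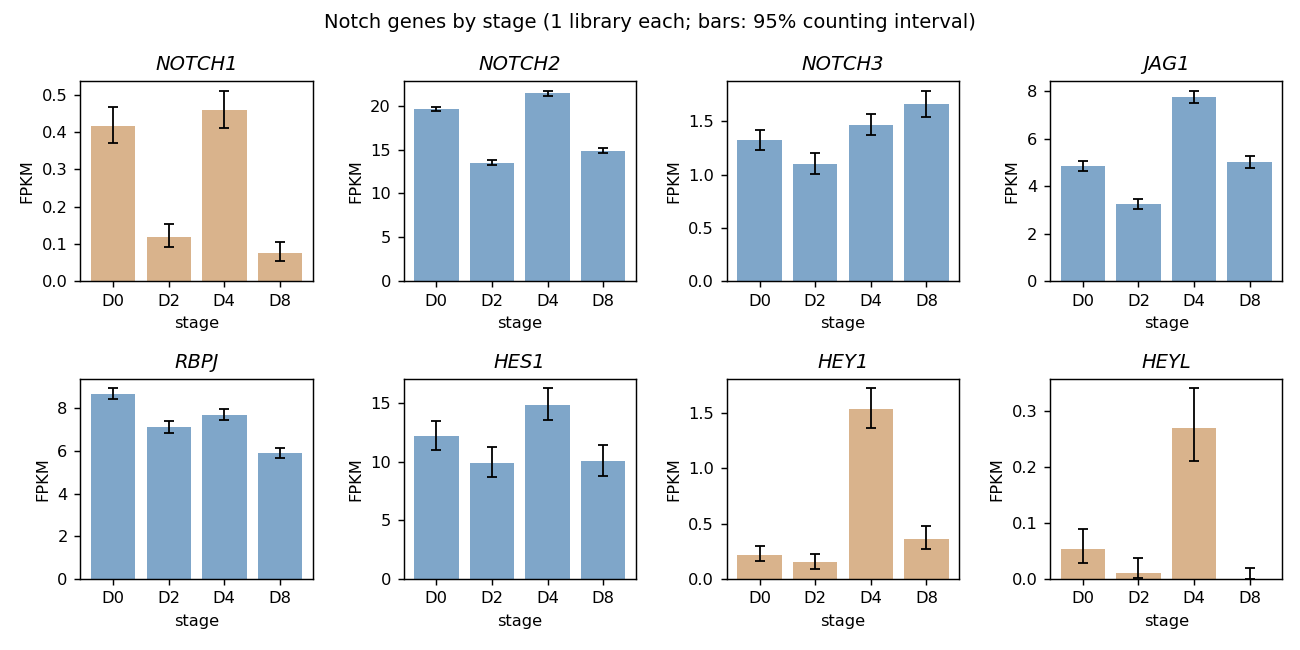
Level in FPKM (vertical axis, from 0, own scale for each gene) of the 8 Notch genes at the 4 stages, with 1 library a stage. Thin lines are 95% counting intervals, blue bars mark the 5 genes that passed the filter on low values and brown bars the 3 that did not. Of the 8 genes, 6 were highest at D4, the exceptions being RBPJ at D0 and NOTCH3 at D8.

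NOTCH2, on chromosome 4 of the Sscrofa11.1 assembly (100951522 to 101152348, plus strand, gene 100153369), had 19.6 FPKM at D0, 13.5 at D2 and 21.4 at D4, then 14.9 at D8. These levels rest on 10179 to 21851 reads a library. D0 and D4 were high and D2 and D8 low. On the log2 scale, the difference was -0.54 for D2 vs D0 (-0.57 to -0.50), 0.67 for D4 vs D2 (0.63 to 0.70) and -0.53 for D8 vs D4 (-0.56 to -0.49). D8 and D2, the nearest pair of low levels, differed by 0.14 (0.10 to 0.18), which is more than the counting error and less than any ratio used for a call. No comparison of NOTCH2 came to 2-fold.

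NOTCH3, on chromosome 2 (62364507 to 62402348, plus strand, gene 102158881), had 1.32 FPKM at D0 and 1.10 at D2, then 1.47 at D4 and 1.66 at D8. It was the only one of the 8 genes that was highest at D8. The log2 ratio was 0.18 for D8 vs D4 (0.04 to 0.32) and 0.33 for D8 vs D0 (0.19 to 0.48), where all filtered protein-coding genes had medians of -0.21 and -0.18. The largest log2 ratio of NOTCH3 was that of D8 vs D2, 0.60 (0.43 to 0.77), so that its 4 levels lay within 1.51-fold of each other.

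NOTCH1 lies on sequence that the files list as Unknown in place of a chromosome (1209291 to 1252848, plus strand, gene 110258061). It had 0.416 FPKM at D0, 0.119 at D2 and 0.459 at D4, then 0.0759 at D8, from 298, 62, 324 and 39 reads. D0 and D4 were again high and D2 and D8 low, with wider gaps than in NOTCH2. The level at D2 was 3.51-fold lower than at D0 (2.66 to 4.69), the level at D4 was 3.86-fold higher than at D2 (2.94 to 5.16), and the level at D8 was 6.05-fold lower than at D4 (4.33 to 8.66). D4 and D0 differed by 0.14 on the log2 scale with an interval from -0.09 to 0.37, so that no difference between them was detectable at this depth. Since NOTCH1 did not reach 1 FPKM in any library, it failed the filter and none of these ratios counts as a call.

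Of the summed FPKM of NOTCH1, NOTCH2, NOTCH3 and NOTCH4, the NOTCH2 gene held 91.3% at D0 and 91.1% at D2, then 91.1% at D4 and 89.3% at D8. The share of NOTCH3 was 6.15% at D0, 7.41% at D2 and 6.24% at D4, then 9.98% at D8, its highest. NOTCH1 held 1.94% at D0 and 0.801% at D2, then 1.95% at D4 and 0.455% at D8. NOTCH4, the remaining receptor, had between 0.0468 FPKM at D8 and 0.168 at D4 and never held more than 0.715%. The sum of the 4 receptors, 21.5 FPKM at D0, 14.8 at D2 and 23.5 at D4, then 16.7 at D8, therefore followed NOTCH2.

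JAG1 encodes a canonical ligand, presented on the surface of the signalling cell. It lies on chromosome 17 (19591248 to 19629659, minus strand, gene 100156773) and had 4.83 FPKM at D0 and 3.24 at D2, then 7.75 at D4 and 5.02 at D8, from 1021 to 3307 reads. D4 was the highest and D2 the lowest, while D0 and D8 lay between them, 0.05 apart on the log2 scale (-0.04 to 0.15). The level at D4 was 2.40-fold that at D2 (2.23 to 2.57), a log2 ratio of 1.26. This was the only comparison in which a Notch gene that passed the filter also passed 2-fold. Among all filtered protein-coding genes, 4.24% were higher past 2-fold in D4 vs D2, 0.838% lower and 5.08% either way. JAG1 was also 1.60-fold higher at D4 than at D0 (1.52 to 1.69) and 1.54-fold lower at D8 than at D4 (1.45 to 1.64).

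JAG1 held most of the canonical ligand RNA, at 93.2% of the summed FPKM of JAG1, JAG2, DLL1, DLL3 and DLL4 at D0, 81.5% at D2 and 89.8% at D4, then 94.2% at D8. None of the other ligands reached 1 FPKM. DLL3, a ligand known as an inhibitor of Notch signalling within the cell that makes it, had 0.120 FPKM at D0 and 0.604 at D2, then 0.342 at D4 and 0.115 at D8, and at D2 it held 15.2% of the sum. JAG2 had 0.0316, 0.0472, 0.253 and 0.164 FPKM at D0, D2, D4 and D8, and DLL1 had 0.171, 0.0768, 0.287 and 0.0305. DLL4, the ligand of sprouting endothelial cells, had 8 reads at D0, 1 at D2 and 0 at D4 and D8. The count of 0 allows up to 3 reads.

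RBPJ, on chromosome 8 (19933035 to 20166746, plus strand, gene 100518262), binds DNA and carries either corepressors or the freed part of the receptor. It had 8.69 FPKM at D0, 7.13 at D2 and 7.72 at D4, then 5.90 at D8. D0 was the highest and D8 the lowest, 1.47-fold apart (1.40 to 1.55). The log2 ratio was -0.29 for D2 vs D0 (-0.36 to -0.21), 0.11 for D4 vs D2 (0.04 to 0.19) and -0.39 for D8 vs D4 (-0.46 to -0.31). All 4 levels differed by more than the counting error, and no comparison came to 2-fold.

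HES1, on chromosome 13 (131135970 to 131137865, plus strand, gene 100499567), encodes the repressor that is a widely used readout of the pathway. It had 12.2 FPKM at D0 and 9.92 at D2, then 14.9 at D4 and 10.04 at D8. The read numbers behind these levels, 394, 233, 473 and 232, rest on the shortest of 4 possible gene lengths, 427 bases, and with another of these lengths they would be larger and the intervals narrower. D4 was the highest. D2 and D8 differed by 0.02 on the log2 scale (-0.25 to 0.29) and could not be ordered. The log2 ratio was 0.59 for D4 vs D2 (0.36 to 0.82), -0.57 for D8 vs D4 (-0.80 to -0.34) and 0.28 for D4 vs D0 (0.09 to 0.48), with none past 2-fold.

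HEY1 and HEYL encode repressors related to HES1. HEY1, on chromosome 4 (56859640 to 56863807, plus strand, gene 100157952), had 0.217 FPKM at D0, 0.149 at D2 and 1.54 at D4, then 0.360 at D8, from 42, 21, 293 and 50 reads. D4 stood well above the other 3 libraries, at 10.3-fold the level of D2 (6.62 to 16.9), 7.07-fold that of D0 (5.11 to 10.02) and 4.27-fold that of D8 (3.15 to 5.88). The levels at D0 and D2 could not be told apart, at -0.54 on the log2 scale (-1.37 to 0.24). At D8, HEY1 was 1.66-fold above D0 (1.08 to 2.56). It failed the filter because only D4 reached 1 FPKM.

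HEYL, on chromosome 6 (95442655 to 95459597, minus strand, gene 100518256), had 0.0525 FPKM at D0 and 0.0103 at D2, then 0.270 at D4 and 0 at D8, from 14, 2, 71 and 0 reads. It was the lowest of the 8 genes and, as with HEY1, most of its reads were at D4. D4 was 5.14-fold above D0 (2.87 to 9.88), and 26.3-fold above the 2 reads of D2 (7.005 to 221). Set at a floor of 3 reads in the D8 library, 0.0157 FPKM, HEYL would be 17.2-fold lower at D8 than at D4 and 3.35-fold lower than at D0. With the counting error of both libraries taken in, the lower limits were 13.6-fold and 2.38-fold. HEYL at D8 was not detectable at this depth.

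The 3 target genes thus shared their highest library, D4, and the size of the step from D2 to D4 differed among them, at 1.501-fold in HES1 (1.28 to 1.76), 10.3-fold in HEY1 and 26.3-fold in HEYL. The intervals of HEY1 and HEYL overlapped each other and neither overlapped that of HES1. HES1 had the highest FPKM of the 3 targets in every library.

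**Figure D2:**
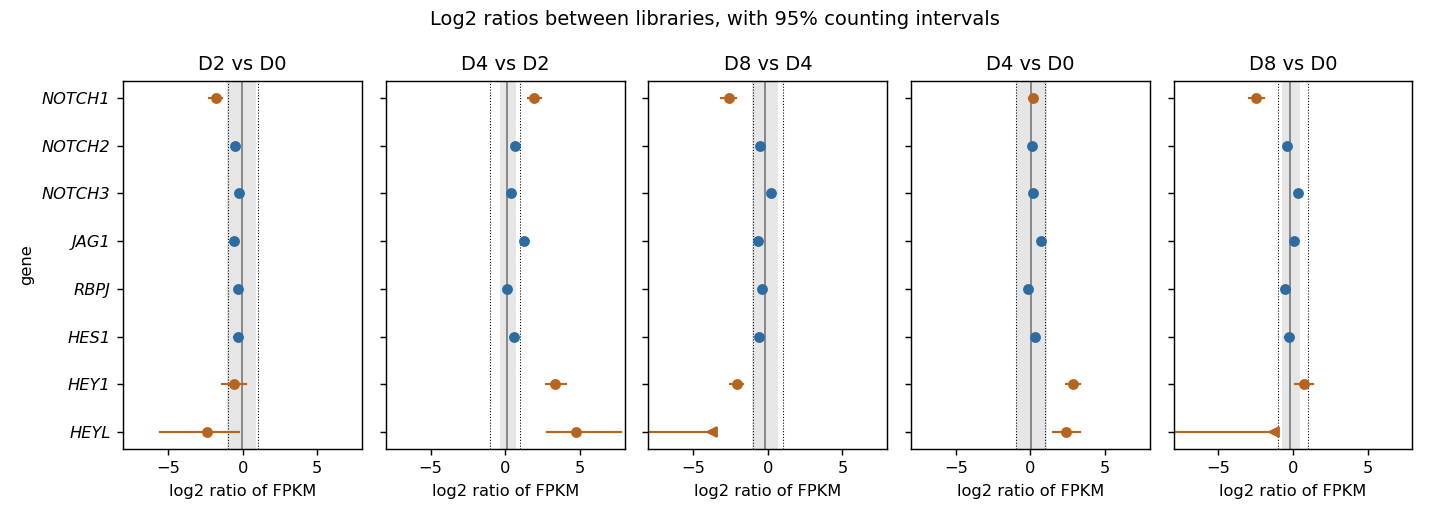
Log2 ratio of FPKM (horizontal axis) of the 8 Notch genes in the 5 comparisons, with 95% counting intervals as lines. Blue points passed the filter on low values and brown points did not, triangles mark the upper limit for HEYL at 0 reads in D8, the grey band holds the middle of all 9191 filtered genes (10th to 90th percentile) with their median as a line, and dotted lines mark 2-fold. JAG1 in D4 vs D2, at 1.26, is the only blue point past 2-fold.

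In the other 4 comparisons, none of the 5 filtered Notch genes passed 2-fold. In all filtered protein-coding genes, 16.8% passed in D2 vs D0, 14.5% in D8 vs D4, 19.2% in D4 vs D0 and 7.28% in D8 vs D0. With so few genes, a count of 0 of 5 or 1 of 5 says little against these shares. NOTCH1 and HEYL, which did not reach 1 FPKM in any library, and HEY1, which did so only at D4, stood outside these counts.

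D4 held the highest level of 6 of the 8 genes and of 37.3% of all filtered genes. It was also the highest of 36.8% of the 13442 genes with at least 20 reads in at least 1 library. That set was chosen after the data were seen. Of the 5 Notch genes that passed the filter, NOTCH2, JAG1 and HES1 were highest at D4. NOTCH1, HEY1 and HEYL did not pass, so the share of filtered genes does not cover them. HEYL met the 20 reads only through D4, so its highest level there follows from that minimum. D0, as in RBPJ, was the highest of 36.5% of the filtered genes, and D8, as in NOTCH3, of 9.51%. Both D0 and D4 were above both D2 and D8 in 5 of the 8 genes (NOTCH1, NOTCH2, RBPJ, HES1 and HEYL) and in 17.5% of the genes of either set. These counts were the same when the libraries were rescaled by the median ratio of the filtered genes or to an equal sum over protein-coding genes. They were not taken with the correction for gene length given below. Under that correction, D4 fell slightly below D0 in NOTCH1 and NOTCH2 and below D2 in RBPJ, so the counts would not hold. In NOTCH1, D4 and D0 differed by no more than the counting error even without it. D2 was the lowest library of 5 of the 8 genes and D8 of 3, where the shares of all filtered genes were 22.2% and 37.5%, and with an equal sum over protein-coding genes each was the lowest of 4, since HES1 was then lowest at D8. Within counting error, D2 and D8 could not be ordered in HES1 and HEYL, nor D0 and D2 in HEY1. These shares again do not cover NOTCH1, HEY1 and HEYL.

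The order in which D0 and D4 lay above D2 and D8 also went with properties of the libraries. D0 and D4 were the deeper libraries, and a single signal recognition particle RNA gene held 12.4% of the fragments at D0 and 12.5% at D4, against 17.1% at D2 and 16.5% at D8. The order was more frequent among long genes, from 9.91% of the filtered genes in the shortest of 5 equal length classes (207 to 1664 bases) to 23.4% in the longest (6111 to 29120 bases). NOTCH1, NOTCH2, NOTCH3 and RBPJ have lengths in the longest class. In D8 vs D4 the median log2 ratio ran from 0.03 in the shortest class to -0.38 in the longest, and in D4 vs D2 from 0.00 to 0.17. Set against the median of their own length class, a correction added after the data were seen, NOTCH1, NOTCH2 and NOTCH3 in D4 vs D0 came to -0.03, -0.04 and -0.02 on the log2 scale, and RBPJ in D4 vs D2 to -0.06, all of them opposite in sign to the uncorrected values. The same correction took D8 vs D4 to -0.14 in NOTCH2, to -0.00 in RBPJ, to -0.31 in JAG1 and to 0.56 in NOTCH3. It left JAG1 past 2-fold in D4 vs D2, at 1.13, and moved HES1 little, to 0.58 in D4 vs D2 and -0.60 in D8 vs D4. The lengths of all genes here are the smallest that match their FPKM. HES1 is in the shortest class by the smallest of its 4 possible lengths, and a longer one could place it in another class and change its corrected values. The part of depth, of the signal recognition particle RNA and of length in the Notch genes' levels was not tested.

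**Figure D3:**
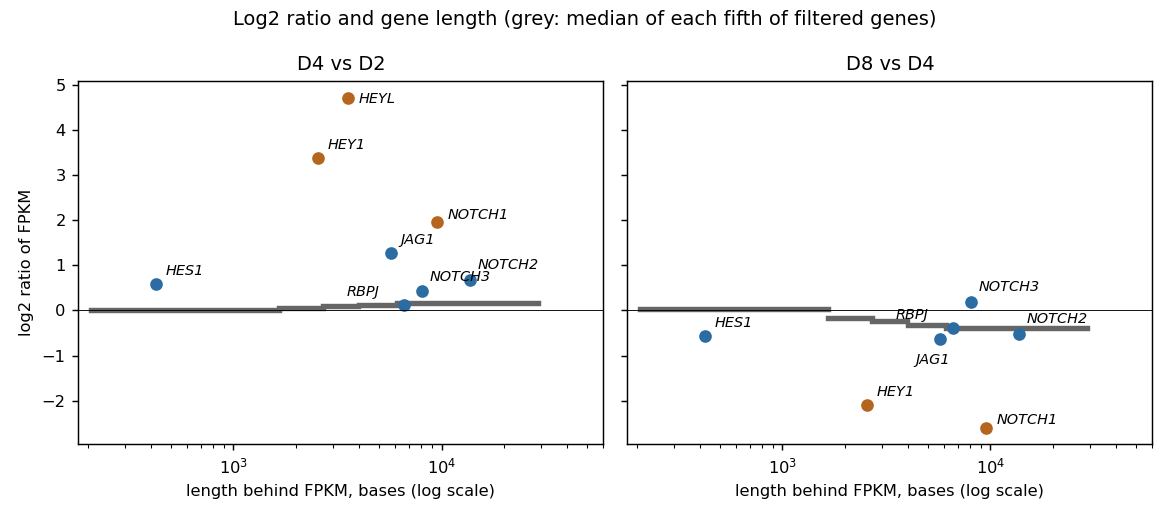
Log2 ratio of FPKM (vertical axis) against the gene length behind FPKM in bases (horizontal axis, log scale) in D4 vs D2 and D8 vs D4, with blue points for Notch genes that passed the filter and brown points for those that did not. Lengths are the smallest that match the FPKM values. Grey steps are the medians of the filtered genes in each of 5 length classes, which run from 0.00 to 0.17 in D4 vs D2 and from 0.03 to -0.38 in D8 vs D4. In D8 vs D4, NOTCH2 and RBPJ lie near the grey step of their class, JAG1, HES1 and NOTCH3 farther from it, HEY1 and NOTCH1 farthest, and HEYL, at 0 reads in D8, is not drawn there.

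Other genes of the pathway were taken from a list of 69 symbols by role, in which 64 were found as protein-coding rows and 38 passed the filter. CCN3 was listed together with NOV, an older symbol of the same gene, under which it was found. DLK1, TLE1 and HES5 were not analysed here, and ITCH is listed as a lncRNA. Of the 38 genes, 2 were higher and 1 lower past 2-fold in D2 vs D0, none either way in D4 vs D2, none higher and 4 lower in D8 vs D4, 3 higher and 1 lower in D4 vs D0, and 1 higher and 3 lower in D8 vs D0. Their median log2 ratio was 0.03, 0.11, -0.36, 0.10 and -0.24 in these comparisons, where that of all filtered genes was -0.03, 0.09, -0.21, 0.06 and -0.18. Of all filtered genes, 6.67% were higher and 10.1% lower past 2-fold in D2 vs D0, 4.43% and 10.1% in D8 vs D4, 10.4% and 8.81% in D4 vs D0, and 3.6% and 3.68% in D8 vs D0, with the shares for D4 vs D2 as given for JAG1. The split between directions depended on the scaling. With median-ratio scaling, 6.43% of all filtered genes were higher and 5.94% lower in D8 vs D4. The shares were 9.57% and 9.66% in D4 vs D0, and 4.41% and 2.26% in D8 vs D0. The pathway genes were then 0 higher and 2 lower in D8 vs D4, 2 and 3 in D4 vs D0, and 2 and 1 in D8 vs D0. With ratios set against the median of the length class (length centring), the pathway genes were 2 higher and 4 lower in D4 vs D0 and 2 higher and 0 lower in D8 vs D0. Of all filtered genes, 9.22% were then higher and 9.56% lower in D4 vs D0, and 4.57% and 2.03% in D8 vs D0. D4 was the highest library of 16 of the 38 (42.1%) and D0 of 12, where D4 was the highest of 37.3% of all filtered genes. With at least 20 reads in 1 library, D4 was the highest of 26 of 57 pathway genes (45.6%) and D0 of 17, where D4 was the highest of 36.8% of all such genes. Low genes can enter that set only through the library where they are highest.

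Among the genes that cut the receptors, all 9 of those listed passed the filter. FURIN, the protease that cleaves the receptor on its way to the surface, had 5.28 FPKM at D0, 7.29 at D2 and 9.71 at D4, then 4.47 at D8 and was 2.17-fold lower at D8 than at D4, a call lost with median-ratio scaling, length centring or a pseudocount of 1. APH1B, a subunit of the gamma-secretase that frees the intracellular part, had 4.76 FPKM at D0 and 2.95 at D2, then 2.47 at D4 and 2.06 at D8, 2.32-fold lower at D8 than at D0, a call lost with length centring or a pseudocount of 1. APH1B was also lower past 2-fold in D4 vs D0 with median-ratio scaling and with length centring. The other 7, among them ADAM10, ADAM17 and the presenilins, stayed within 2-fold in all 5 comparisons on the scale of the deposited FPKM. Of all filtered genes, 5.08% to 19.2% passed 2-fold in a single comparison, so that this count says little about these genes.

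POFUT1, which puts the fucose on the receptors that the Fringe enzymes extend, had 5.18 FPKM at D0, 7.76 at D2 and 9.43 at D4, then 3.83 at D8, and was 2.47-fold lower at D8 than at D4, a call lost with length centring. EOGT, which adds N-acetylglucosamine to the repeats of the receptor, was highest at D0 with 6.33 FPKM and lowest at D8 with 2.98, 2.13-fold apart, a call lost under all 3 of these alternatives. LFNG and MFNG, both Fringe enzymes, did not pass the filter. They are given here because of their values, with 0.355, 0.446, 1.13 and 0.388 FPKM for LFNG and 0.0258, 0.177, 0.921 and 0.422 for MFNG at D0, D2, D4 and D8, each highest at D4. RFNG, the remaining Fringe gene listed, passed the filter and went otherwise, with 11.2, 7.63, 5.72 and 9.13 FPKM, highest at D0 and lowest at D4. It stayed within 2-fold on the deposited FPKM. With median-ratio scaling and with length centring it was lower past 2-fold in D4 vs D0. RFNG is named for its values too.

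The genes that bind RBPJ or act on its partners differed among themselves. TLE3, a corepressor of the HES proteins, had 2.02 FPKM at D0 and 2.41 at D2, then 4.20 at D4 and 1.35 at D8, which was 2.08-fold higher at D4 than at D0, a call lost under the same 3, and 3.12-fold lower at D8 than at D4, which held under each of them. RITA1, which carries RBPJ out of the nucleus, had 1.38, 2.99, 3.56 and 2.43 FPKM and was 2.16-fold higher at D2 and 2.58-fold higher at D4 than at D0, both lost with a pseudocount of 1. None of the 6 filtered coactivators, MAML1 and EP300 among them, passed 2-fold. With so few genes, this says little beside the 5.08% to 19.2% of all filtered genes that passed in a single comparison.

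Of the genes that limit the receptors, NUMBL, a relative of the Notch inhibitor NUMB, was highest at D0, with 6.25 FPKM against 1.48 at D2, 2.23 at D4 and 2.85 at D8. It was 4.23-fold lower at D2, 2.80-fold lower at D4 and 2.19-fold lower at D8 than at D0, the last of these being lost under all 3 alternatives. DTX3L, of the Deltex family, had 0.894, 1.05, 1.22 and 1.91 FPKM, 2.14-fold higher at D8 than at D0, which was lost with a pseudocount of 1 and with FPKM of at least 1 required in all 4 libraries. EGFL7, a secreted protein that binds Notch receptors, had 1.64, 5.18, 6.68 and 3.11 FPKM, 3.16-fold higher at D2 and 4.08-fold higher at D4 than at D0 and 2.15-fold lower at D8 than at D4, the last of these being lost under all 3 alternatives. With median-ratio scaling and with length centring, EGFL7 was also higher past 2-fold in D8 vs D0. DTX1, also of the Deltex family and itself a Notch target in lymphoid cells, did not pass the filter and is named for its values, 0.362, 1.32, 3.54 and 0.835 FPKM at D0, D2, D4 and D8. DTX4, of the same family and below the filter too, went otherwise and was highest at D0, with 1.83, 0.506, 0.518 and 0.673 FPKM. Among the other listed genes below the filter, TLE4, DTX3 and NOV were also highest at D0. These 4 genes are named for their values as well.

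Among the further HES and HEY genes, only HES6 passed the filter, with 6.96, 7.62, 6.55 and 7.37 FPKM. HES4 and HEY2 are named for their values. HES4 had 0.404, 0.294, 1.66 and 0.746 FPKM, highest at D4, as HES1, HEY1 and HEYL were. HEY2 had 2.79 FPKM at D0, 0.443 at D2 and 0.790 at D4, then 3.00 at D8, so that D0 and D8 were high and D2 and D4 low.

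**Figure D4:**
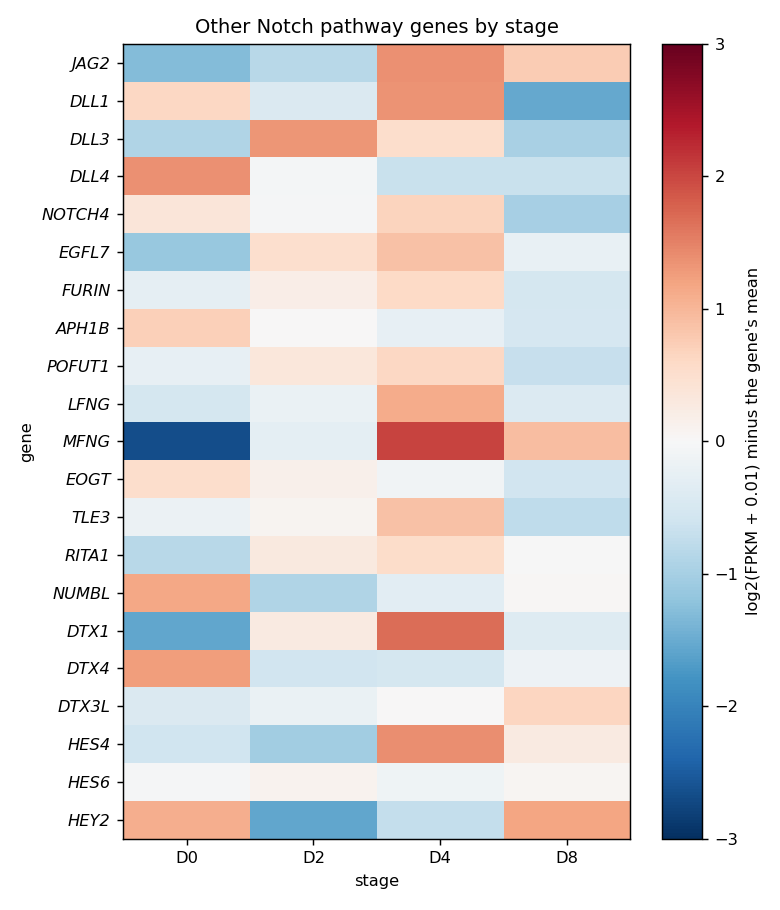
Levels of 21 further genes of the Notch pathway (rows) at the 4 stages (columns), as log2(FPKM + 0.01) minus the mean of the gene over the 4 libraries, with red above and blue below that mean. The rows are the other canonical ligands and NOTCH4, the 9 filtered genes that passed 2-fold in a comparison, and 7 genes added after their values were seen (HES4, HES6, HEY2, LFNG, MFNG, DTX1 and DTX4). HES4, LFNG, MFNG and DTX1 are highest at D4, DTX4 is highest at D0, and HEY2 is high at D0 and D8.

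In bulk RNA, fewer cells of a type and less RNA per cell cannot be told apart. Markers of other cell types were therefore summed beside the Notch genes. The 13 mural and smooth muscle markers added up to 6822 FPKM at D0 and 814 at D2, then 632 at D4 and 5177 at D8, most of it ACTA2 and TAGLN, which activated fibroblasts also express. Of the 13, 9 were highest at D0, 2 at D2 (ABCC9 and KCNJ8) and 2 at D4 (RGS5 and PDGFRB), and none at D8. RGS5 had 0.156, 0.142, 0.742 and 0.352 FPKM, and MYH11 was highest at D0 with 0.633. Of the 13 endothelial markers 10 were found, with sums from 2.40 FPKM at D2 to 6.56 at D0, mostly of ERG (0.850 to 3.72) and PECAM1 (1.14 to 2.56). CDH5, which defines that cell type, was at 0 reads at D0, D2 and D8 and had 0.0450 FPKM at D4, and VWF was at 0 at D2, D4 and D8. For macrophages and leukocytes, 11 of 12 markers were found and summed to between 6.37 and 10.8 FPKM, led by CD14 (2.78 to 7.54), with CD163 up to 1.42, C1QA up to 1.37 and PTPRC at no more than 0.0712. The fibroblast and preadipocyte markers summed to 3113 to 5654 FPKM, led by COL1A2 and COL3A1. The 12 adipocyte markers summed to 124 FPKM at D0, 506 at D2 and 1817 at D4, then 2129 at D8. FABP4 alone had 853 FPKM at D4 and 1557 at D8. Of the 12, 8 were highest at D4 and lower at D8, LPL, PLIN1, PPARG and CEBPA among them, and the median over the list was 54.8 at D4 and 42.1 at D8. D4 was thus the highest library of 8 of the 12 adipocyte markers and of 6 of the 8 Notch genes, where it was that of 37.3% of all filtered genes. Of the 6, NOTCH1, HEY1 and HEYL did not pass the filter. D4 was also the highest library of 4 of the 10 fibroblast and preadipocyte markers. The part of any of these cell types in the Notch values was not tested.

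For each Notch gene that passed the filter, the 3 filtered genes with the most similar course were found by the distance between their 3 log2 ratios to D0, over the 4 libraries. For NOTCH2 these were ECM1 (distance 0.06), BAG6 (0.09) and CDC25A (0.09), and for NOTCH3 TBC1D10A (0.09), LOC100625049 (0.09) and LOC110261673 (0.10). JAG1 had no neighbour closer than HACD2 (0.12), followed by NID2 (0.15) and HMGB2 (0.17). RBPJ had the closest, SHISA5 (0.01), with MAPKAPK2 (0.03) and CREB1 (0.04), and HES1 had RBMX (0.07), RIC8A (0.07) and ADSS (0.07). HACD2, the gene nearest to JAG1, had 12.5, 8.84, 21.1 and 12.5 FPKM at D0, D2, D4 and D8. With 1 library a stage, such a likeness describes these libraries.

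Circular RNAs were found within 1 of the 8 genes, NOTCH2, on its strand. The more abundant, ssc_circ_0002055, spans 3634 bases (101135602 to 101139235) and had 8 reads across its back-splice junction at D0 and 7 at D2, then 20 at D4 and 8 at D8. In SRPBM, which scales junction reads by the mapped reads of the library, this was 51.3, 50.9, 119 and 67.2. The exact Poisson interval at D4, 72.5 to 183, overlapped those of D0 (22.2 to 101), D2 (20.4 to 105) and D8 (29.0 to 132), so that no order of the stages could be read beyond counting error, although D4 was the highest, as for the linear NOTCH2 RNA. The second, ssc_circ_0002054, had 4 junction reads at D2 and 0 in the other libraries. No circular RNA was listed for the other 7 genes.

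Within 50000 bases of the Notch genes lay 6 lncRNA or antisense genes, none above 1.22 FPKM. The nearest, LOC102164131, a lncRNA on the opposite strand 391 bases from HES1, had 0.162 FPKM at D0, 0.226 at D2 and 0.309 at D4, then 0.113 at D8. MSTRG.21771, 48511 bases from NOTCH3, had 1.22, 0.0463, 0.958 and 0.282 FPKM. It is listed as antisense but lies on the same strand as NOTCH3, and so is not antisense to that gene. None of the 6 passed the filter.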

How the data were processed

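Each stage (D0, D2, D4 and D8) had 1 library, made from the pooled RNA of 3 piglets. The authors aligned trimmed reads to the pig genome Sscrofa11.1 with HISAT2 2.0.5 (version also in the submitters' processing notes) and deposited FPKM for genes. For circRNAs, found with BWA-MEM and CIRI, the authors deposited SRPBM, scaled by mapped reads, in the same column. Whether counting used strand is not given in the sources used here. Chromosomes, positions and gene numbers are those of the files.

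Library totals were computed from FPKM values of single-exon tRNA and miRNA genes with 1 fragment. For each gene, the smallest whole length of at least 200 bases that gave whole reads in all 4 libraries was taken, found for 16149 of 16192 protein-coding genes (99.7%). This search was tested on simulated data for genes that span more bases than HES1, so that the test does not cover HES1. Wherever a longer length also matches, reads are underestimated and intervals too wide. SRPBM of 1 junction read was 6.42, 7.27, 5.94 and 8.40 in the order of the stages, and 53207, 43989, 51074 and 37480 junction reads were found.

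The 5 comparisons set D2, D4 and D8 against D0, D4 against D2, and D8 against D4, and so share libraries. A call was a ratio of at least 2 on log2(FPKM + 0.01) after the filter, without a test. Printed ratios of Notch genes are of FPKM itself, with exact binomial (Clopper-Pearson) intervals, and levels have exact Poisson intervals. Ratios of other genes are of FPKM. Alternatives were other pseudocounts, filters, scalings and ratios. Named were the 8 genes, canonical ligands and NOTCH4, pathway genes past 2-fold after the filter, the 3 nearest courses, leading or absent markers, and circRNAs with at least 10 junction reads in a library; others are said to be named for their values. The members and lists were chosen with earlier results of these data known. No sequence is printed, as none was used here. Python 3.11.15, pandas 2.3.3, numpy 2.4.6, scipy 1.17.1 and matplotlib 3.10.9 were used.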

Additional observations from a re-analysis of the deposited data

How the results depend on the processing

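The counts of Notch genes past 2-fold moved with the filter and the ratio and were equal under the other scalings, pseudocounts and length centring. The count of filtered Notch genes was 0 in D2 vs D0, 1 in D4 vs D2, then 0 in D8 vs D4, 0 in D4 vs D0, then 0 in D8 vs D0. Without a filter it was 2, 4, 3, 2 and 2 of 8 in that order, where 29.6%, 18.7%, 27.7%, 32.2% and 21.7% of all genes passed. With at least 20 reads in 1 library it was also 2, 4, 3, 2 and 2, against 26.8%, 14%, 24.3%, 29.3% and 17.3%. HEYL met that minimum only through D4, so its calls against D4 follow from the minimum. With FPKM of at least 1 in at least 1 library it was 2 in D4 vs D2, 1 in D8 vs D4 and 1 in D4 vs D0, against 7.4%, 18% and 23.1%. HEY1 entered only through D4, so that these calls of it follow from the filter too, and none of these counts is a result about the genes. At a 1.5-fold ratio it was 3 in D4 vs D2 (JAG1, NOTCH2 and HES1) and 1 each in D8 vs D4 and D4 vs D0 (JAG1), against 14.6%, 35.9% and 39.5%.

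For the other pathway genes, the counts of 3, 0, 4, 4 and 4 of 38 in the same order became 19, 12, 18, 21 and 19 of 64 without a filter and 14, 9, 15, 14 and 15 of 57 with at least 20 reads, with the shares of all genes given above. They were 7, 3, 8, 9 and 7 of 46 with FPKM of at least 1 in 1 library, against 20.3%, 7.4%, 18%, 23.1% and 10.1%, and 8, 3, 18, 13 and 8 of 38 at 1.5-fold, against 35.7%, 14.6%, 35.9%, 39.5% and 21.5%. A pseudocount of 1 gave 2 in D8 vs D4, 2 in D4 vs D0 and 0 in D8 vs D0, against 8.33%, 13.9% and 4.5%. Median-ratio scaling gave 2 in D8 vs D4 (12.4%), and length centring gave 1 in D8 vs D4 (11.8%) and 2 in D8 vs D0 (6.6%). The number of circRNAs of the Notch genes was 2, and 1 with a minimum of 5 junction reads.

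Of 200 log2 ratios of the Notch genes under another pseudocount, scaling or length centring, 139 stayed within their counting interval, 61 left it, and 4 changed sign, all under length centring and none past 2-fold. Median-ratio scaling moved the median of all filtered genes in D8 vs D4 from -0.21 to -0.00, and in D8 vs D0 from -0.18 to -0.03. The alternatives with at least 20 reads, with 1 library at 1 FPKM and with length centring were added after the data were seen. No paired analysis was possible because each stage has 1 pooled library. Depth limits HEYL, HEY1, NOTCH1 and the circRNAs most.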
